A study of Drosophila melanogaster with 14 samples.

Results

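Gene expression in 15 h Drosophila melanogaster embryos was compared between lola-F mutants and controls, with 3 libraries in each group, 6 of the 14 samples of the series, taken by their labels. The lola-F mutants carried the allele labelled lola-F stop over the deficiency Df(2R)ED2076. The controls carried a wild-type copy over the same deficiency, so both groups shared the deficient chromosome. The chromosomes opposite it may differ beyond lola, and such differences cannot be told apart here from loss of the F isoform. Embryos were collected over 2 h, aged for 13 h and sorted by hand for mCherry, and each library was made from 1 µg of RNA of a pool of 100 whole embryos. Whether the pools stem from separate crosses or collections is not stated in the labels, and the p-values below therefore reflect only the spread of these libraries, which may be technical. The comparison asked which genes change when the F isoform of lola is lost.

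The gene lola (longitudinals lacking) encodes a large set of transcription factors through alternative splicing. These isoforms share a BTB domain, through which such proteins pair, and most differ in the zinc fingers that bind DNA. Mutations in lola are known for misrouted longitudinal axons in the embryonic nerve cord. At this age the nerve cord, the body wall muscles and the midgut are differentiating and the epidermis is starting to lay down cuticle.

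Gene counts per library ran from 11681770 to 22629694 in mutants and from 3326811 to 11542534 in controls, with the lowest in control 1. Levels are given in CPM, counts brought to a common library size, and ± after a level is the SD of 3 libraries. Mutants 1 and 2 were the closest pair, with a chi-square per degree of freedom of 3.08, and mutant 3 differed from them by 67.5 and 85.4. Control 3 differed from the other controls by 34.9 and 40.5, and controls 1 and 2 differed by 15.1. In mutant 3, 31 genes lay more than 4-fold above each other library after 1 CPM was added, among them genes of cell division. CycB, which encodes a mitotic cyclin, was at 12.6, 11.8 and 353 CPM in mutants 1, 2 and 3, against 29.4, 14.6 and 4.65 CPM in controls 1, 2 and 3. The anaphase activator gene fzy was at 4.40, 4.24 and 68.6 CPM in mutants, against 1.84, 2.44 and 2.07 CPM in controls. In control 1, 65.2% of reads mapped to several places, against 3.17% to 4.37% in the other 5 libraries, and 18 genes lay more than 4-fold above each other library, 16 of them small or structural RNA genes. Calls of named genes that were lost without mutant 3 or control 3 are therefore given beside them, together with the larger changes in the counts of their groups.

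The libraries held the markers of late embryos. Summed over 6 genes, muscle markers reached 30498 to 32751 CPM in mutants and 21625 to 25325 CPM in controls, and the sum over 9 epidermis and cuticle markers was 3956 to 4548 CPM against 2042 to 2359 CPM. The Tweedle cuticle gene TwdlN alone was at 2656 to 2987 CPM in mutants and 731 to 1289 CPM in controls. Summed markers of the midgut, 6 genes, were at 3081 to 4289 CPM in mutants and 1661 to 2260 CPM in controls. Neuron markers, 5 of 6 matched, summed to 366 to 582 CPM in mutants and 713 to 1333 CPM in controls, and glia markers, 6 genes, to 255 to 279 CPM against 249 to 338 CPM. Hemocyte markers, 5 of 6 matched, summed to 1008 to 1325 CPM in mutants and 1514 to 2089 CPM in controls. Fat body markers, 4 genes, summed to 712 to 1107 CPM against 1825 to 3201 CPM. The fat body sum was nearly all apolpp, at 711 to 1107 CPM in mutants and 1823 to 3201 CPM in controls. Markers of adult eyes summed to 0.652 to 1.26 CPM in mutants and 0.775 to 1.31 CPM in controls. Markers of the earliest zygotic transcription, 4 genes with Sry-alpha at 0, summed to 2.78 to 12.2 CPM in mutants and 1.38 to 2.63 CPM in controls. Whole embryos were sequenced, so fewer cells of a type and less RNA per cell cannot be told apart in any result below.

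**Figure D1:**
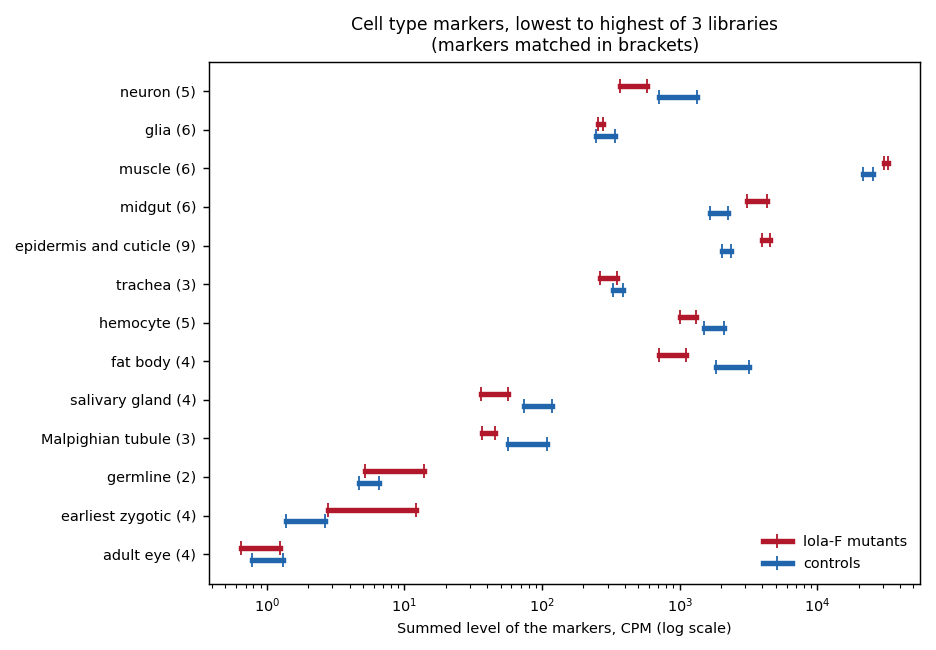
Summed level of marker genes of 13 cell types or stages, in CPM on a log scale, drawn as the lowest to the highest of 3 libraries for lola-F mutants (red) and controls (blue). Muscle, midgut, epidermis and cuticle, and earliest zygotic markers lay higher in the mutants. Neuron, hemocyte, fat body, salivary gland and Malpighian tubule markers lay lower, and in each of these types the groups did not overlap. The fat body sum is nearly all apolpp. The Tweedle cuticle gene TwdlN alone was at 2656 to 2987 CPM in mutants and 731 to 1289 CPM in controls. The Malpighian tubule sum rests on 3 markers, while a list of 13 tubule genes had 6 positive and 7 negative fold changes. The median log2 fold change of that list was −0.02.

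The targeted gene itself was measured first. lola lies on chromosome 2R, 10481894 to 10543291, minus strand, in the BDGP6.54 annotation. It was at 151, 154 and 236 CPM in mutants 1, 2 and 3, against 274, 259 and 361 CPM in controls 1, 2 and 3. Every mutant library was below every control library, and the mutant mean was 60.5% of the control mean (180.3 ± 47.9 against 298.1 ± 55.1 CPM). The log2 fold change was −0.73 ± 0.22 (SE), and the adjusted p of edgeR's quasi-likelihood test over all genes was 0.0796. An exact permutation test, two-sided, returned p = 0.1, and 3 libraries against 3 allow no smaller value. DESeq2 gave an adjusted p of 0.0139. Without mutant 3 lola was called by edgeR (log2 fold change −0.94, adjusted p = 0.0322), and without control 3 it was not (−0.56, 0.139). The F isoform alone cannot be read from these values, since counts per gene pool the isoforms. Once the length trend described below was removed, the sign turned (log2 fold change 0.68, adjusted p = 0.301), with the exons of all isoforms joined to a length of 24895 bases.

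Genes that rose in lola-F mutants included digestive enzyme, ribosomal protein, respiratory chain, muscle actin and cuticle genes, and genes that fell included neuronal, axon guidance, chromatin, laminin and lipoprotein genes. Of 10191 genes tested, 719 (7.06%) were called by edgeR's quasi-likelihood test at an adjusted p of 0.05, 339 higher (3.33%) and 380 lower (3.73%). Of these, 105 were higher and 234 lower by more than 2-fold. In 20.5% of all tested genes every mutant library was above every control library, and in 19.5% every mutant library was below. An unadjusted p under 0.05 was found for 3172 of the 10191 genes, and DESeq2 called 815 higher and 1117 lower. Without control 3 edgeR called 504 of 10404 genes higher and 646 lower. Without mutant 3 it called 398 of 10409 genes higher and 273 lower. The shares and counts over all genes given here are the background for the counts in each group of genes below. All calls were lost when any 1 of 4 libraries was left out. Without mutant 1, mutant 2, control 1 or control 2 edgeR called 0 genes, and the genes with an unadjusted p below 0.05 numbered 2595, 2874, 2277 and 2551. DESeq2 without control 1, the shallow library, called 390 genes higher (3.80%) and 700 lower (6.82%). Of the 118 called genes named in this text, edgeR called 91 without mutant 3 and 100 without control 3, and none changed direction in either. DESeq2 without control 1 called 106 of them and gave no adjusted p for the other 12.

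**Figure D2:**
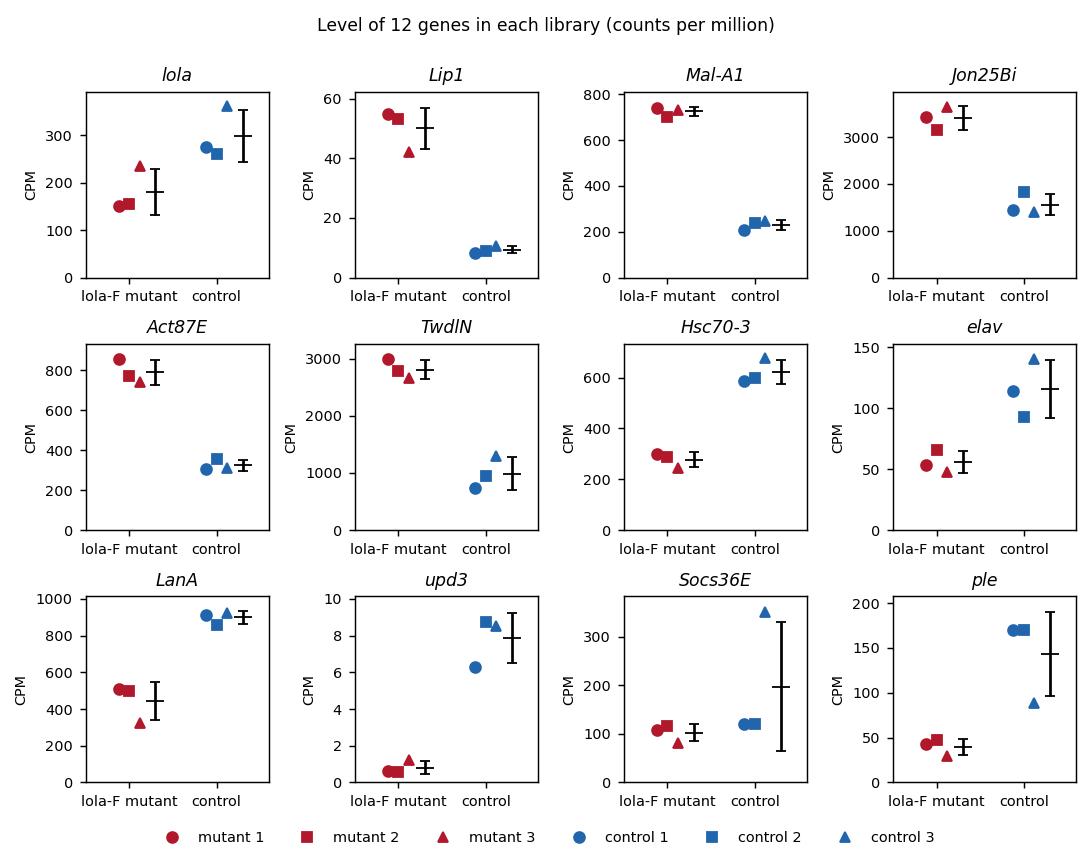
Level of 12 genes in CPM, each panel with the 3 lola-F mutant libraries at left (red) and the 3 controls at right (blue), drawn with circle, square and triangle for libraries 1, 2 and 3; black bars are mean ± SD. lola and Socs36E are shown as genes that were not called, and in Socs36E control 3 stands at 350 CPM, against 120 CPM in each of the other controls.

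Fold changes ran with the length of the gene. The median exonic length was 1293 bases for genes called higher and 6582 bases for genes called lower, against 2068 bases over all genes tested. Spearman's rho between log2 fold change and exonic length was −0.50 across 9995 genes, which are not independent replicates, and −0.40 without mutant 3 and −0.39 without control 3. In each of the 9 pairs of a mutant with a control library it was negative, from −0.59 to −0.25. In the decile of genes with the shortest exons 69 of 1000 genes were higher and 9 lower, and in the decile with the longest 1 of 1000 was higher and 211 lower. Mutant 3 and control 3 deviated most, with median log2 deviations in the longest decile of −0.73 and 0.67, against −0.23 and −0.16 in mutants 1 and 2 and 0.26 and 0.15 in controls 1 and 2. After each library's trend with length was removed, 170 genes were higher (1.70%) and 99 lower (0.990%) of 9995. Calls shared by edgeR, DESeq2 and the fit without the trend numbered 107 higher and 75 lower genes. Of the 118 called genes named here, 42 kept their call in that fit, 73 kept their direction without a call and 3 turned. What part length has in the differences between mutants and controls was not tested, and values with the trend removed are given beside the groups of genes below.

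**Figure D3:**
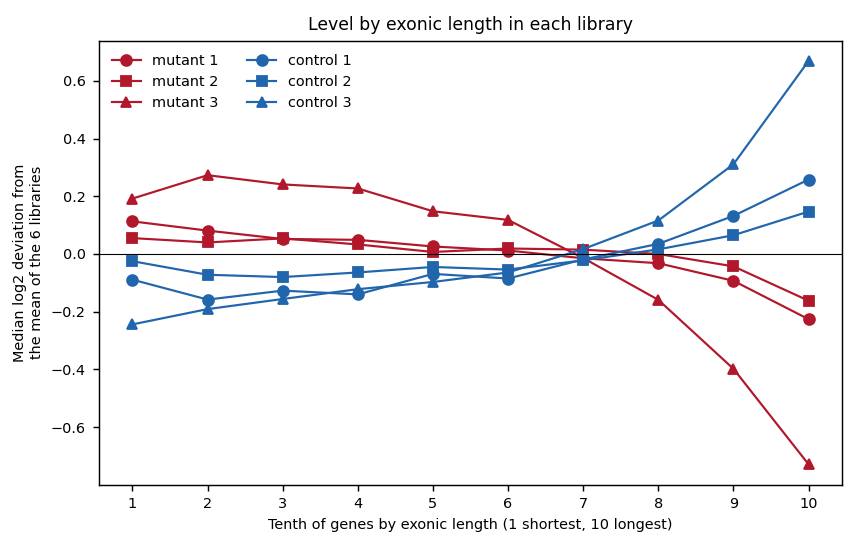
Median log2 deviation of each library from the mean of the 6 libraries, by decile of genes in order of exonic length, for mutants (red) and controls (blue). In the longest decile mutants 1, 2 and 3 lay at −0.23, −0.16 and −0.73 and controls 1, 2 and 3 at 0.26, 0.15 and 0.67.

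Called genes of digestive enzymes, Npc2 sterol-binding proteins and lysosomal mannosidases were higher in the mutants. Of 13 maltase and amylase genes, which encode enzymes that split sugars and starch, 6 rose and none fell. Of 28 midgut serine protease genes 7 rose and none fell, of 8 Npc2 sterol-binding genes 3 rose, of 6 lysosomal mannosidase genes 2 rose, and of 5 lipase genes 1 rose. The median log2 fold changes of these lists were 1.06, 0.46, 0.53, 0.71 and 0.59, against 0.02 over all genes. The maltase gene Mal-A1 was at 741, 703 and 733 CPM in mutants and 207, 238 and 246 CPM in controls, 3.15-fold higher (log2 fold change 1.66 ± 0.13 SE, adjusted p = 0.00763 by edgeR). Lip1, a lipase gene, was at 54.9, 53.1 and 42.2 CPM in mutants and 8.41, 8.96 and 10.7 CPM in controls, 5.29-fold higher (adjusted p = 0.00763 by edgeR). Both genes showed mutant libraries close together and far above all controls. Mal-A7, Mal-A8 and Mal-A6 rose 4.35-, 2.66- and 2.27-fold.

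Among the proteases, Jon44E was at 474, 443 and 807 CPM in mutants and 137, 149 and 192 CPM in controls, 3.60-fold higher. Jon25Bi, the most abundant gene of the list that is named here, was at 3427, 3143 and 3653 CPM in mutants and 1442, 1823 and 1409 CPM in controls. Jon25Bi rose 2.19-fold, Jon25Biii 2.08-fold and Jon65Aiv 1.77-fold, with no overlap of the groups in any of them. LManVI, a mannosidase gene, was at 2451, 2287 and 2112 CPM in mutants and 1021, 1111 and 868 CPM in controls, and LManV rose 2.25-fold. Npc2c, Npc2d and Npc2g rose 3.47-, 2.16- and 1.75-fold. In the fit without the length trend, 6 maltase and amylase, 3 protease, 1 Npc2, 2 mannosidase and 1 lipase genes were still called higher. In DESeq2 without control 1 these counts were 5, 8, 3, 3 and 2. Without mutant 3, Npc2g was not called (adjusted p = 0.0651 by edgeR). Reads shared by near-identical genes are missing from the counts, which leaves values of the Jon, Mal-A and lysozyme families uncertain to that extent.

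Called lysozyme genes were higher too. LysC, LysD and LysS, which encode lysozymes that are known in the fly as enzymes of the gut, rose 2.23-, 2.18- and 2.03-fold. LysD was at 649, 587 and 932 CPM in mutants and 299, 316 and 378 CPM in controls. They were the 3 members called higher in a list of 24 antimicrobial genes, of which 1 was called lower and 17 had negative fold changes, with a median log2 fold change of −0.85. Without control 3, 5 members of that list were called higher and 7 lower. None of the 3 was called with the length trend removed (adjusted p = 0.0716, 0.0716 and 0.134), and LysS was not called without mutant 3 (0.0513). Alp7, an alkaline phosphatase gene, was at 36.2, 33.9 and 155 CPM in mutants and 9.20, 11.3 and 13.3 CPM in controls, so mutant 3 stood apart in its 6.58-fold rise (adjusted p = 0.0452 by edgeR). Without control 3 it was not called (adjusted p = 0.0687). The midgut markers given above, which include Mal-A1 and LManV, summed higher in mutants too. Whether the share of midgut tissue differed was not tested.

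Called genes of the cytosolic ribosome were all higher. Of 84 ribosomal protein genes 26 rose and none fell, against 3.33% called higher over all genes. In 79 of the 84 every mutant library lay above every control library, against 20.5% over all genes. The median log2 fold change of the 84 genes was 0.80. Their summed level was 220768, 200868 and 315736 CPM in mutants 1, 2 and 3, against 123999, 152511 and 151069 CPM in controls. Mutant 3 thus held more of these transcripts than any other library. RpS23, a protein of the small subunit, was at 4889, 4507 and 6147 CPM in mutants and 2246, 3250 and 2905 CPM in controls (1.85-fold, adjusted p = 0.0423 by edgeR). RpS5b, which has a related copy, rose 2.85-fold, and RpL15, RpL10Ab, RpL41, RpS28b and RpL34a rose 1.61- to 1.83-fold. The count changed with the libraries that stood apart: 46 members were called without mutant 3 and 4 without control 3, and 46 in DESeq2 without control 1. Of the genes named, RpS28b and RpL34a kept their calls without control 3 (adjusted p = 0.0477 and 0.0486), and RpS5b lost its call without mutant 3 (0.0520). Without the length trend 0 members were called and the list median was 0.54.

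Called genes of the respiratory chain were all higher too. Of 67 genes for nuclear-encoded subunits of the respiratory complexes and ATP synthase, 23 rose and none fell, against 3.33% called higher over all genes. All 67 had a positive fold change, with a median log2 fold change of 0.62. Their summed level was 36320, 33988 and 41564 CPM in mutants and 23479, 26941 and 26666 CPM in controls. ND-SGDH, a subunit of complex I, was at 289, 275 and 334 CPM in mutants and 175, 185 and 171 CPM in controls (1.69-fold, adjusted p = 0.0303 by edgeR). The complex I genes ND-PDSW and ND-B14.7 rose 1.76- and 1.57-fold, and ATPsynG, a subunit of ATP synthase, rose 1.65-fold. After removal of the trend the median was 0.37, and 2 members were called, among them ND-SGDH (adjusted p = 0.0421). The calls numbered 22 without mutant 3, 29 without control 3, 61 in DESeq2 and 36 in DESeq2 without control 1.

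Other genes of protein synthesis had few calls. Of 72 genes of the mitochondrial ribosome, 1 was called higher, mRpL49 (1.62-fold), with a list median of 0.26, and 0 were called with the length trend removed. Of 41 translation factor genes 1 rose, eEF1beta (1.66-fold), and 3 fell. The initiation factor genes eIF4G1, eIF4G2 and eIF4H1 fell 2.46-, 2.71- and 1.99-fold. eIF4G1 was at 202, 229 and 120 CPM in mutants and 470, 403 and 481 CPM in controls. eIF4G1 and eIF4H1 kept their calls with the length trend removed (adjusted p = 0.0474 and 0.0300), and eEF1beta and eIF4G2 did not (0.0845 and 0.0776). Without mutant 3, mRpL49, eEF1beta and eIF4G2 were not called (adjusted p = 0.0513, 0.0549 and 0.0647), and neither were mRpL49 and eEF1beta without control 3 (0.0606 and 0.0639), where 5 translation factor genes were called lower. Of 20 ribosome biogenesis genes edgeR called 0, and 6 had an unadjusted p under 0.05, near the share over all genes. Of the 20 genes 16 had negative fold changes, with a median of −0.33 as tested and −0.46 with the length trend removed. Without control 3, 8 of them were called lower and 1 higher, and DESeq2 called 2 lower and 1 higher. Of 31 proteasome and 13 glycolysis genes edgeR called 0, with an unadjusted p under 0.05 for 3 and 2, and DESeq2 called 0 and 1.

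**Figure D4:**
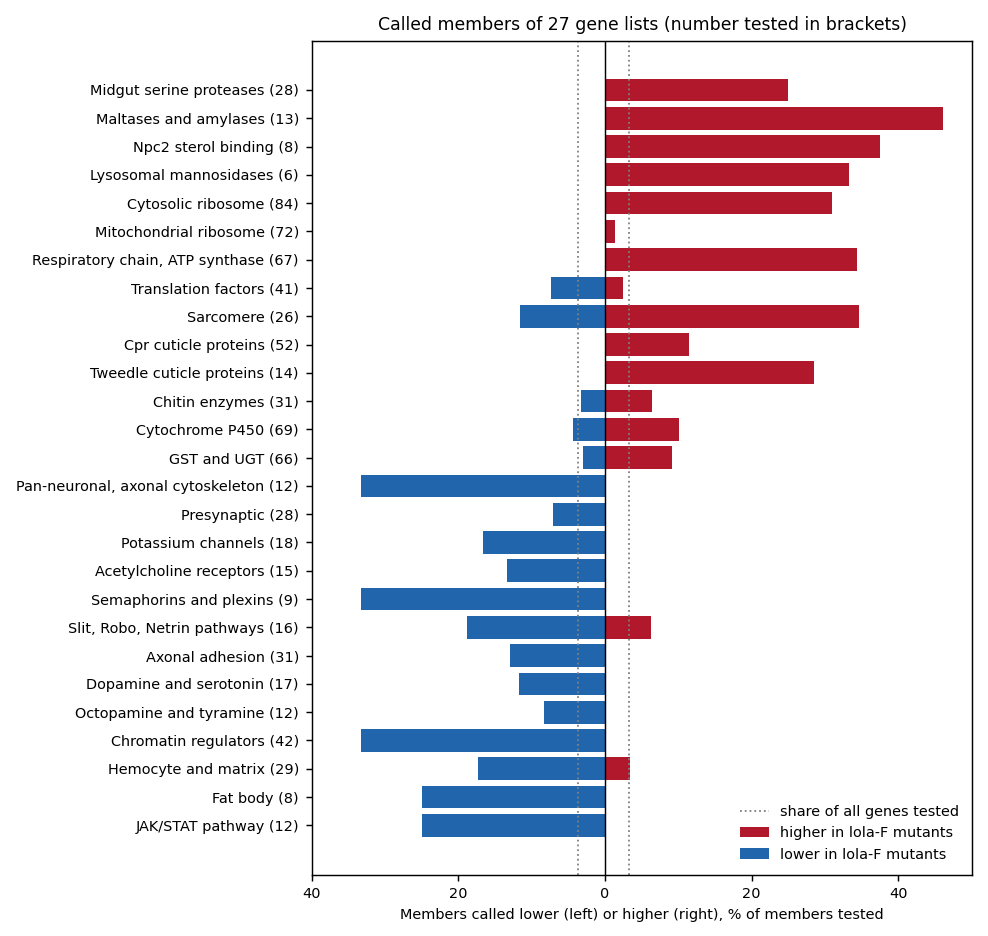
Share of the tested members of 27 gene lists that were called lower (blue, left) or higher (red, right) in lola-F mutants, in percent, with the number tested in brackets. Dotted lines mark the shares over all genes tested, 3.73% lower and 3.33% higher. Lists of the gut, cytosolic ribosome and cuticle extend to the right while those of neurons and chromatin extend to the left. The mitochondrial ribosome list, with 1 of 72 called higher, stays short of the dotted line.

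Muscle genes were called in both directions. Of 26 sarcomere genes 9 rose and 3 fell. Act87E, an actin gene, was at 858, 772 and 738 CPM in mutants and 306, 354 and 310 CPM in controls (2.44-fold higher, adjusted p = 0.0153 by edgeR). The muscle actin gene Act57B was at 12384, 11892 and 15231 CPM in mutants and 7596, 8650 and 8388 CPM in controls (1.604-fold), and Mlc2, the myosin regulatory light chain gene, rose 1.70-fold. Mp20, a calponin-like muscle protein gene, rose 1.94-fold. The 3 genes called lower encode the giant proteins of muscle: Msp300 (3.06-fold), a nesprin that anchors nuclei, bt (2.38-fold), which encodes projectin, and sls (2.05-fold), the fly titin. Msp300 was at 562, 547 and 371 CPM in mutants and 1438, 1236 and 1857 CPM in controls.

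The sarcomere genes called in the 2 directions differed in length. The called higher members measured 791 to 9804 bases and the called lower members 28019 to 69810 bases. Without the length trend, 13 of the 26 genes were called higher and 0 lower, and Msp300, bt and sls had log2 fold changes of 0.10, 0.09 and 0.66 without a call. Act87E, Mlc2 and Mp20 kept their calls in that fit (adjusted p = 0.0146, 0.0409 and 0.0451). Without mutant 3, sls was not called (adjusted p = 0.0698 by edgeR), and without control 3 neither sls nor Act57B was (0.0512 and 0.0639). sls was named here after its values were seen. Of 16 muscle transcription and fusion factor genes edgeR called 0, while 6 had an unadjusted p under 0.05 and DESeq2 called 3 lower. Without control 3, 1 of them was called lower, and with the length trend removed 1 was called higher.

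Called genes of neurons were lower in the mutants. All 12 genes of the list with elav and the axonal cytoskeleton and all 28 presynaptic genes had negative fold changes, with median log2 fold changes of −0.93 and −0.72, and 4 and 2 of them were called lower. Every mutant library lay below every control library in 9 of the 12 and 21 of the 28 genes, against 19.5% over all genes. elav, which encodes the pan-neuronal RNA-binding protein used to mark neurons, was at 53.6, 65.4 and 47.6 CPM in mutants and 114, 93.1 and 141 CPM in controls (2.09-fold lower, adjusted p = 0.0353 by edgeR). futsch, a microtubule-associated protein gene of axons, was at 44.5, 46.1 and 33.0 CPM in mutants and 113, 90.4 and 181 CPM in controls (3.12-fold lower). Map205, which encodes another microtubule-binding protein, fell 2.25-fold. The transcription factor gene scrt, a neuronal member of the Snail family, fell 2.70-fold.

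Called synaptic and channel genes were lower too. unc-13, whose product primes synaptic vesicles, was at 157, 164 and 92.9 CPM in mutants and 337, 267 and 486 CPM in controls (2.64-fold lower), and Rab3, a vesicle GTPase gene, fell 2.05-fold. Of 18 potassium channel genes 3 fell, eag, Sh and SK (3.42-, 2.86- and 2.62-fold). The calcium channel gene cac was the 1 member called among 10 calcium and sodium channel genes (2.78-fold lower), and all 10 had negative fold changes. Of 15 acetylcholine receptor genes, nAChRalpha3 and nAChRalpha1 fell 3.07- and 2.53-fold. eag was at 14.73, 15.4 and 8.16 CPM in mutants and 31.8, 29.4 and 67.9 CPM in controls, so mutant 3 and control 3 lay at the 2 ends. Without mutant 3 scrt, eag, Sh, SK, cac, nAChRalpha3 and nAChRalpha1 were not called (adjusted p = 0.0696, 0.0658, 0.0702, 0.0703, 0.0596, 0.0596 and 0.0698 by edgeR). Without control 3 SK and nAChRalpha1 were not called (0.0546 and 0.0645).

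Called genes of axon guidance, the class for which lola is best known, were lower too, with 1 exception, while most genes of these lists were not called. Of 9 semaphorin and plexin genes 3 fell. PlexA, a semaphorin receptor gene, was at 73.8, 83.3 and 58.1 CPM in mutants and 191, 155 and 171 CPM in controls (2.40-fold lower, adjusted p = 0.0223 by edgeR). PlexB, the other plexin gene, and the ligand gene Sema1a fell 2.28- and 2.74-fold. Of 16 genes of the Slit, Robo and Netrin pathways 3 fell: robo2, a Slit receptor gene (1.86-fold), ena, an actin regulator gene (1.82-fold), and Abl, a kinase gene (2.16-fold). In the same list comm3, which encodes a protein of the Commissureless family, rose 1.49-fold and was called with the length trend removed too (adjusted p = 0.0415). In that fit robo2, ena and Abl were not called (adjusted p = 0.210, 0.131 and 0.651), and the median log2 fold change of the 16 genes was 0.01, against −0.63 as tested. Of 31 adhesion genes of axons 4 fell, among them stan, the fly Flamingo cadherin (2.79-fold), and Ten-m, a teneurin (2.61-fold). stan was at 12.8, 12.5 and 14.65 CPM in mutants and 35.8, 31.6 and 44.3 CPM in controls. Without mutant 3 Sema1a, ena and Abl were not called (adjusted p = 0.0590, 0.0581 and 0.0686), and without control 3 PlexB was not (0.0527).

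With the length trend removed, 0 members of the pan-neuronal and cytoskeletal, presynaptic, potassium channel, calcium and sodium channel, acetylcholine receptor, semaphorin and adhesion lists were called. Their medians were −0.17, −0.20, −0.16, −0.40, −0.21, −0.27 and −0.17 in that fit. Long exons were common in these lists, whose median lengths ran from 5169 to 10225 bases. DESeq2 without control 1 called 7 of the 12 pan-neuronal and cytoskeletal genes, 12 of the 28 presynaptic genes and 14 of the 31 adhesion genes lower. Among 53 genes of the dpr, DIP, beat and side families of synaptic recognition edgeR called 0, and 50 had negative fold changes, with a median of −0.42 as tested and −0.23 with the trend removed. In these families 15 genes had an unadjusted p under 0.05, near the share over all genes (3172 of 10191). DESeq2 called 8 of them lower, against 1117 of 10191 over all genes. Of 19 glia genes edgeR called 0 (3 with an unadjusted p under 0.05) and DESeq2 2 lower, with a median of −0.08. Of 39 neuropeptide genes edgeR called 0 (8 with an unadjusted p under 0.05) and DESeq2 1 higher and 1 lower, with a median of 0.16. In both lists the share with an unadjusted p under 0.05 was below that over all genes. Without control 3, 1 glia gene was called higher, and 1 neuropeptide gene was called higher and 2 lower. Over all 10404 genes of that fit 504 were called higher and 646 lower. Neuron markers, which include elav, summed lower in mutants, as given above, in sums from which the length trend was not removed.

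**Figure D5:**
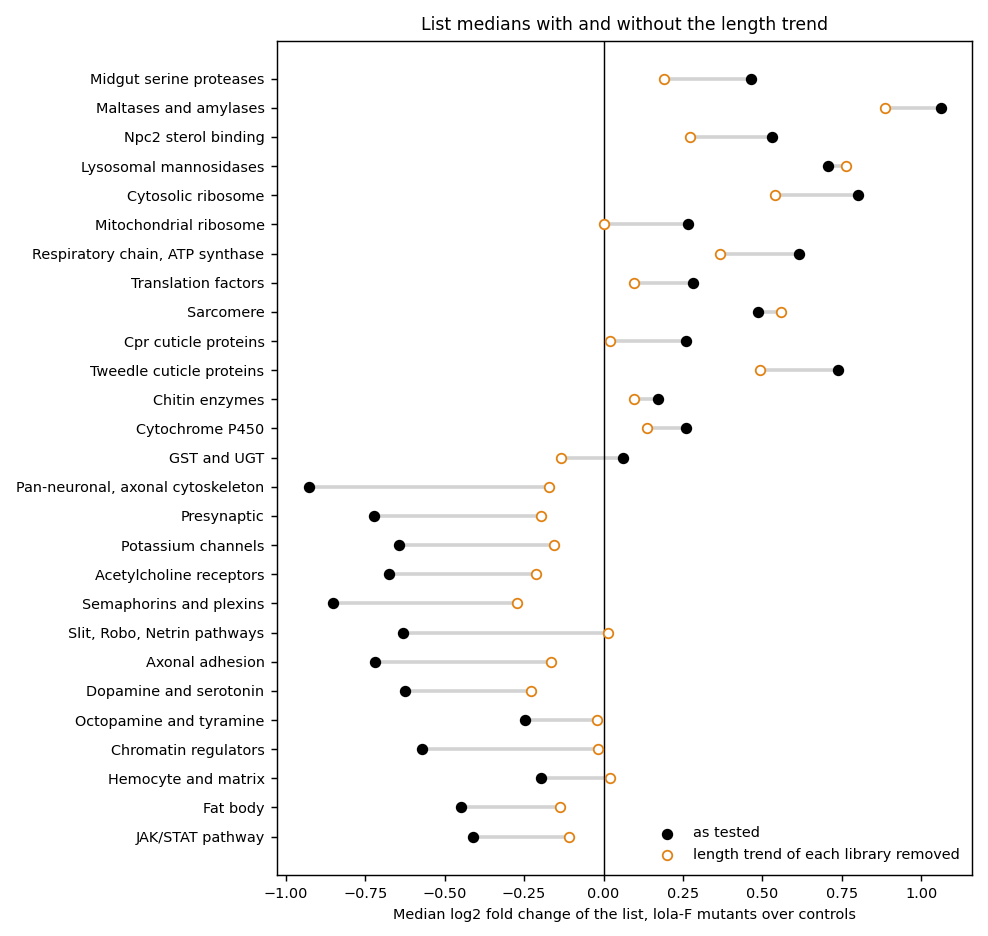
Median log2 fold change of 27 gene lists, lola-F mutants over controls, as tested (filled) and after each library's length trend was removed (open). Lists of the gut, cytosolic ribosome and sarcomere kept a positive median. The median of the mitochondrial ribosome list was 0.265 as tested and −0.000 with the trend removed. The neuronal and chromatin lists moved toward 0, for chromatin regulators with a median of −0.57 as tested and −0.02 with the trend removed.

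Dopamine and octopamine genes were examined because they mark aminergic neurons. ple encodes tyrosine hydroxylase, the first enzyme of dopamine synthesis, which also serves the tanning of cuticle. It was at 42.7, 47.1 and 29.5 CPM in mutants and 170, 170 and 89.1 CPM in controls (3.59-fold lower, log2 fold change −1.85 ± 0.30 SE, adjusted p = 0.0247 by edgeR), and it kept its call with the length trend removed (adjusted p = 0.0386). Control 3 lay below the other controls and above every mutant. The receptor gene Dop1R1 fell 2.48-fold, and Ddc, the next enzyme of the pathway, was at 51.6, 50.6 and 60.4 CPM in mutants and 73.1, 77.4 and 144 CPM in controls (adjusted p = 0.0841). Of 17 dopamine and serotonin genes these 2, ple and Dop1R1, were called lower. Dop1R1 lost its call with the length trend removed (log2 fold change −0.26, adjusted p = 0.187), and the list median was −0.23 in that fit, against −0.62 as tested.

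In the octopamine and tyramine list 1 of 12 genes was called, the receptor gene Octalpha2R, at 17.8, 18.2 and 11.3 CPM in mutants and 37.3, 27.4 and 49.95 CPM in controls. It fell 2.44-fold (adjusted p = 0.0420 by edgeR, 0.0554 without mutant 3 and 0.0525 without control 3). With the length trend removed it was not called (log2 fold change −0.44, adjusted p = 0.10), and the list median was −0.02, against −0.25 as tested. Tbh, the enzyme that makes octopamine, was at 21.8, 25.9 and 20.1 CPM in mutants and 21.3, 23.1 and 34.0 CPM in controls (log2 fold change −0.22 ± 0.21 SE, adjusted p = 0.499). Tdc2, which makes tyramine in neurons, was at 11.1, 11.5 and 10.99 CPM in mutants and 8.68, 11.2 and 10.9 CPM in controls (adjusted p = 0.683). Tdc1, which does so outside the nervous system, was at 62.1, 61.3 and 61.2 CPM in mutants and 68.1, 71.5 and 80.5 CPM in controls (adjusted p = 0.229). Vmat, the vesicular monoamine transporter gene, was at 113, 124 and 87.5 CPM in mutants and 161, 145 and 288 CPM in controls (adjusted p = 0.0877).

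Genes of chromatin regulators were called lower alone. Of 42 genes 14 fell and none rose, against 3.73% called lower over all genes. In 28 of the 42 every mutant library lay below every control library, against 19.5% over all genes. dom, an ATPase that exchanges histone variants, was at 117, 117 and 101 CPM in mutants and 277, 249 and 279 CPM in controls (2.41-fold lower, adjusted p = 0.0153 by edgeR). kis, a CHD remodeller, and Acf, a nucleosome spacing factor, fell 3.03- and 1.86-fold. Top3alpha, which encodes a DNA topoisomerase, was at 11.2, 10.6 and 16.4 CPM in mutants and 50.7, 45.0 and 41.7 CPM in controls, 3.57-fold lower. The lower calls numbered 10 without mutant 3, 14 without control 3 and 20 in DESeq2 without control 1. In the fit without the length trend 1 member was called, Top3alpha (adjusted p = 0.0295), and the list median was −0.02. In the BTB factor list, the family of lola, 1 of 12 genes was called, psq, and 11 had negative fold changes.

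Genes of laminin chains, tiggrin and apolipoproteins fell. Of 29 hemocyte and matrix genes 5 fell and 1 rose. The laminin chain genes LanA and LanB1 fell 2.03- and 1.76-fold, and Tig, the integrin ligand tiggrin, fell 1.71-fold. LanA was at 507, 501 and 322 CPM in mutants and 914, 858 and 924 CPM in controls (adjusted p = 0.0353 by edgeR). NimB3, of the Nimrod family, was the member called higher, at 3.59, 4.97 and 4.55 CPM in mutants and 1.58, 1.63 and 1.98 CPM in controls. Of 8 fat body genes 2 fell, apolpp and Apoltp (2.54- and 2.19-fold), which encode the apolipoproteins that carry lipid in the hemolymph. apolpp was at 1021, 1107 and 711 CPM in mutants and 2186, 1823 and 3201 CPM in controls. Neither list had a called member after removal of the length trend. Without control 3 LanB1 was not called (adjusted p = 0.0510), and 3 of the hemocyte and matrix genes were called lower and 2 higher. Hemocyte markers summed lower in mutants, and so did fat body markers, whose sum was nearly all apolpp and so adds little to its value. Their part in these results was not tested.

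The JAK/STAT ligand genes upd3 and upd2 were lower, and the receptor and transcription factor genes of the pathway were not called. upd3, a cytokine induced by wounds and stress, was at 0.629, 0.571 and 1.203 CPM in mutants and 6.31, 8.76 and 8.53 CPM in controls (9.48-fold lower, log2 fold change −3.24 ± 0.36 SE, adjusted p = 0.0153 by edgeR). upd2, a second ligand, was at 0.449, 0.652 and 0.994 CPM in mutants and 3.16, 2.34 and 2.41 CPM in controls (3.55-fold lower, adjusted p = 0.0416). In both genes each mutant library lay below each control library. Both kept their calls with the length trend removed (adjusted p = 0.0146 and 0.0408), without mutant 3 (0.0118 and 0.0376) and without control 3 (0.0154 and 0.0469). Like every call, both were lost in edgeR without mutant 1, mutant 2, control 1 or control 2, and with a replicate block. DESeq2 without control 1 gave log2 fold changes of −3.41 and −1.76 and no adjusted p for either. The third called member of the 12 tested was Ets21C, an ETS factor gene, at 7.54, 7.42 and 9.73 CPM in mutants and 19.7, 21.3 and 76.1 CPM in controls (4.79-fold lower). It was not called without mutant 3 (adjusted p = 0.0761) or with the length trend removed (0.0992).

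Socs36E, a target and inhibitor of the pathway, was at 109, 117 and 82.0 CPM in mutants and 120, 120 and 350 CPM in controls (adjusted p = 0.174), so control 3 stood alone. The receptor gene dome was at 69.1, 62.2 and 93.8 CPM in mutants and 81.2, 79.2 and 136 CPM in controls (adjusted p = 0.329), and Stat92E at 177, 184 and 213 CPM against 201, 191 and 267 CPM (adjusted p = 0.450), with overlap of the groups in both. Among other immune genes, AttC, an attacin gene, had 2 counts over the mutant libraries and 57 over the controls. The ratio of controls to mutants was 48.0 (exact 95% interval 12.7 to 406, counting error only; adjusted p = 0.0242 by edgeR). Of 39 Toll and Imd pathway genes 2 fell, near the share of 3.73% called lower over all genes. Of the 39 genes 24 had negative fold changes, with a median log2 fold change of −0.17. The 2 were the NF-kappaB factor gene Dif (1.69-fold) and the receptor gene Toll-6 (2.45-fold). Toll-6 is also 1 of the 4 genes called lower in the list of axonal adhesion genes. Neither was called without mutant 3 (adjusted p = 0.0601 and 0.0808), and Dif was not without control 3 (0.0624). With the length trend removed neither was called (0.162 and 0.118). Tep2, a thioester protein gene of the immune response, was at 35.5, 40.1 and 37.4 CPM in mutants and 104.1, 93.5 and 112 CPM in controls, 2.74-fold lower, and was called in each of edgeR, DESeq2 and the fit without the length trend, for which it was picked after its values were seen.

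Stress genes moved in both directions. Hsc70-3 encodes BiP, the chaperone of the endoplasmic reticulum. It was at 301, 287 and 244 CPM in mutants and 588, 599 and 676 CPM in controls (2.24-fold lower, adjusted p = 0.0153 by edgeR), and its call held with the length trend removed (0.0146). The small heat shock gene l(2)efl was at 469, 454 and 488 CPM in mutants and 101, 117 and 187 CPM in controls (3.48-fold higher, adjusted p = 0.0208), and Hsp68 rose 1.99-fold. Of 16 heat shock genes these 3 were called, and Hsp68 was not without mutant 3 (adjusted p = 0.0513) or with the length trend removed (0.0620), where l(2)efl was (0.0322). Without control 3, 4 heat shock genes were called lower. Of 14 oxidative stress genes 1 was called, Keap1, the inhibitor of the Nrf2 homologue, at 16.2, 15.7 and 12.2 CPM in mutants and 29.5, 25.9 and 36.4 CPM in controls. It was called with the length trend removed too (adjusted p = 0.0300), and without control 3, 3 members of that list were called lower and 1 higher.

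Detoxification genes were mostly higher where called. Of 69 cytochrome P450 genes 7 rose and 3 fell, and of 66 glutathione and UDP-glycosyl transferase genes 6 rose and 2 fell. Over all genes 3.33% were called higher and 3.73% lower, so the falls in both lists were near that share. Cyp28d2 was at 422, 401 and 436 CPM in mutants and 89.7, 102 and 222 CPM in controls (3.03-fold higher). Cyp28d1, Cyp6a23, Cyp311a1 and Cyp9c1 rose 2.84-, 2.501-, 2.35- and 2.01-fold. GstT4 was at 267, 279 and 327 CPM in mutants and 129, 140 and 124 CPM in controls (2.22-fold higher, adjusted p = 0.0153 by edgeR), and GstE12 rose 1.97-fold. Ugt317A1 was at 7.99, 10.2 and 7.43 CPM in mutants and 33.4, 29.1 and 20.8 CPM in controls (3.23-fold lower, adjusted p = 0.0208). Cyp12d1-p had 7 counts over the mutants and 50 over the controls, a ratio of controls to mutants of 12.03 (exact 95% interval 5.43 to 31.5, counting error only), and reads that it shares with its near-identical copy are missing. Without mutant 3 Cyp28d2 was not called (adjusted p = 0.0543). Without the trend, 3 P450 genes were higher and 3 lower, and 3 transferase genes were higher and 3 lower. Without control 3, 11 transferase genes were called higher and 6 lower, and without mutant 3, 9 P450 genes were called higher and 1 lower.

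Called cuticle protein genes were higher. Of 14 Tweedle genes 4 rose and none fell. TwdlN was at 2987, 2787 and 2656 CPM in mutants and 731, 948 and 1289 CPM in controls (2.84-fold higher, adjusted p = 0.0231 by edgeR). TwdlJ, TwdlL and TwdlO rose 3.39-, 2.65- and 1.71-fold. Of 52 Cpr genes, which encode chitin-binding cuticle proteins, 6 rose and none fell, among them Cpr64Ad (2.67-fold), Cpr11B (1.85-fold) and Cpr100A (1.63-fold). Of the 52 genes 17 had negative fold changes. Without control 3, 3 Cpr genes and 1 Tweedle gene were called lower, against 646 of 10404 over all genes. DESeq2 called 1 Cpr gene lower. Vajk2, a cuticle protein gene, rose 1.52-fold. Of 31 genes of chitin turnover, Cda9, a deacetylase gene, and obst-B, a chitin-binding protein gene, rose 2.06- and 2.00-fold, and the chitinase gene Cht6 fell 2.70-fold. The 1 fall among 31 genes was near the 3.73% called lower over all genes.

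In the apical matrix, 2 of 9 genes of zona pellucida proteins fell. dpy encodes a giant matrix protein that anchors epidermis to cuticle, and was at 82.4, 81.4 and 56.8 CPM in mutants and 282, 222 and 264 CPM in controls (3.48-fold lower). zye fell 2.32-fold. dpy joins 71820 bases of exons, and with the length trend removed its log2 fold change was −0.12 (adjusted p = 0.823). In that fit TwdlN and Cda9 kept their calls (adjusted p = 0.0390 and 0.0300), while 0 of the Cpr and zona pellucida genes were called, and obst-B and Cht6 lost their calls (0.0659 and 0.159). TwdlO and Vajk2 were not called without control 3 (0.0519 and 0.0514), and Vajk2 not without mutant 3 (0.0564). Epidermis and cuticle markers, which include Cpr11B and Tweedle genes, summed higher in mutants, as given above, in a sum not independent of the Tweedle values. The 52 Cpr genes summed to 5223 to 6159 CPM in mutants and 4837 to 5109 CPM in controls.

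Outside the lists, CG13135 had the largest rise, at 16.7, 17.9 and 52.4 CPM in mutants and 0.526, 0.916 and 0.775 CPM in controls (36.7-fold higher, adjusted p = 0.0153 by edgeR). lncRNA:CR44468 rose 9.84-fold at low levels, 1.71, 1.96 and 2.41 CPM in mutants and 0.263, 0 and 0.345 CPM in controls. The non-coding gene lncRNA:CR44701 had 3 counts over the mutants and 120 over the controls, a ratio of controls to mutants of 67.4 (exact 95% interval 22.5 to 331, counting error only). phr, the photolyase gene, belongs to a list of circadian genes, of which 8 were tested, 1 called higher and 1 lower. It was at 36.9, 34.6 and 42.3 CPM in mutants and 8.41, 7.53 and 16.2 CPM in controls, 3.47-fold higher. Ag5r, an antigen 5-related gene, rose 2.85-fold and AANATL3, of the arylalkylamine acetyltransferase family, 3.18-fold. Among the larger falls, srl, the fly PGC-1 homologue, was at 31.2, 34.7 and 19.98 CPM in mutants and 122, 107 and 53.0 CPM in controls, 3.28-fold lower. mahe, an RNA helicase gene, fell 3.12-fold and Orct2, an organic cation transporter gene picked like Tep2, 2.43-fold. Without mutant 3, lncRNA:CR44468 and srl were not called (adjusted p = 0.0553 and 0.0670).

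Every embryo carried a deficiency on chromosome 2R, and the chromosomes opposite it may differ between the groups beyond lola. The calls were therefore also read by position in BDGP6.54. On 2R 76 of 2039 genes were higher (3.73%) and 56 lower (2.75%), near the shares over all genes. Within 100 kb of lola 18 genes were tested and 1 was called, its neighbour psq on chromosome 2R, 10557888 to 10617280, plus strand. psq encodes a BTB factor with a DNA-binding domain of its own kind, and was at 33.1, 34.6 and 37.4 CPM in mutants and 68.9, 57.5 and 105 CPM in controls (2.20-fold lower, adjusted p = 0.0401 by edgeR). It was not called without mutant 3 (adjusted p = 0.0513) or with the length trend removed (0.298). Within 1000 kb 217 genes were tested, 2 higher and 7 lower, with stan, Rab3 and Cyp12d1-p among the lower ones.

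The share of lower calls was highest on chromosome 4. Of 87 genes tested 1 was higher (1.15%) and 12 lower (13.8%), and 76 had negative fold changes, with a median log2 fold change of −0.42. On the other arms the share lower ran from 2.75% to 5.02%. The called genes of chromosome 4 included bt, unc-13, PlexA, PlexB, eIF4G1 and apolpp. Its genes had a median exonic length of 3971 bases, against 2068 bases over all genes. Without the trend 0 were higher and 1 lower, and the median was −0.26.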

How the data were processed

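The authors used STAR 2.5.0c for alignment to BDGP6 and HTSeq 0.6.1p1 for counting, per the submitters' processing notes. Neither the annotation release nor the strand setting is given in the sources used here. The deposited counts are whole numbers per gene, without normalization, in files named as filtered. Libraries were directional and made from polyA RNA, per the labels. The 5 summary rows of each file (6.32% to 7.75% of reads, and 66.7% in control 1) stayed out. Of 17558 identifiers 17253 matched BDGP6.54, which gave symbols, positions and joined exonic lengths. lola was read from a former FlyBase identifier from general knowledge.

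Counts of the 6 libraries were fitted alone in R 4.3.3 with edgeR 4.0.16: filterByExpr, TMM scaling and the quasi-likelihood F test, p-values being adjusted after Benjamini and Hochberg with a threshold of 0.05. The script was tested on simulated data. The SE follows from the log2 fold change and F. Alternatives used DESeq2 1.42.0, limma-voom 3.58.1, other scalings and filters, a 1.2-fold threshold, each library left out, a replicate block and removal of each library's trend of level with exonic length (lowess, span 0.3). Libraries were not paired by replicate number. No list was tested as a set. Counting intervals and floors cover counting error only.

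The comparison, the 62 gene lists and the rule for named genes were chosen with earlier results of these data known. Of the list entries 6 were removed or respelled after the files were read. The rule took lola, Tbh and Tdc2, in each direction the 15 called genes with a name and the largest change at 5 CPM or more without overlap of the groups, the 2 largest of any symbol, the 6 most abundant, and up to 4 members per list by p. Members of defining roles may be named as not called, and the text names part of what the rule allows. The planned search of promoters for motifs was not run.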

Additional observations from a re-analysis of the deposited data

How the results depend on the processing

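Higher and lower calls numbered 339 and 380 in the main analysis, 815 and 1117 in DESeq2, 72 and 84 with a 1.2-fold threshold, 198 and 229 without the filter, 170 and 99 with the length trend removed, and 38 and 26 with the length trend removed and a replicate block. Upper quartile scaling, which gave a median of 0.17 over all genes, against 0.02, called 943 higher and 439 lower (68.2% higher, against 47.1%). The replicate block alone called 0 and 0 genes (2494 with an unadjusted p under 0.05). Same-numbered libraries did not deviate together (correlations −0.03, −0.17 and −0.11). Leaving out single libraries, in edgeR or DESeq2, gave 0 to 924 higher and 0 to 1063 lower calls. Members of any list called higher and lower, 118 and 75, became 272 and 205 in DESeq2, 25 and 19 with the 1.2-fold threshold, 179 and 114 at 5 CPM in 3 libraries, 62 and 49 without the filter, 44 and 17 with the length trend removed, 14 and 4 with that and the block, 0 and 0 with the replicate block alone, 277 higher with upper quartile scaling, and 0 to 289 and 0 to 179 with a library left out. lola was called by DESeq2 (log2 fold change −0.74), and its value turned to 0.68 with the length trend removed and to 0.54 with the block as well. With a library left out it was −0.97 to −0.56. The length relation, rho −0.50, became −0.22 without the filter and 0.00 (0.002, and 0.001 with the block) with the trend removed, by construction. Of the 118 called genes named, none turned in any alternative but Msp300 (0.10, and 0.13 with the block), bt (0.094 and 0.10) and sls (0.66 and 0.66) with the length trend removed. Of genes not called, dome (0.038 and 0.004) and Stat92E (0.27 and 0.24) also turned there. Tbh turned with both length trend removal and block (0.011) and without control 3, Tdc2 in DESeq2 without control 1, and CycB without mutant 3. With a library left out Tbh ran from −0.363 to 0.026, Tdc2 from −0.004 to 0.182 and CycB from −0.401 to 3.723. The causes were not tested. Depth limits genes with few counts: 3 counts equal 0.789 CPM in control 1 and 0.157 to 0.305 CPM in the other libraries.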

Other observations

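Several groups outside the main results held few or no calls. Of the 62 lists 17 had no called member, 12 had members called higher alone, 21 had members called lower alone and 12 had both. All but 1 of 18 vacuolar proton pump genes had a positive fold change, with a median log2 fold change of 0.33. In 14 of the 18 every mutant library lay above every control library, against 20.5% over all genes. Of these 18 genes edgeR called 0 (7 with an unadjusted p under 0.05) and DESeq2 called 5 higher. Of 22 odorant-binding protein genes 3 rose and 21 had a positive fold change. Of 8 Hox genes, 37 cell cycle genes and 13 Malpighian tubule genes edgeR called 0, with medians of −0.56, 0.30 and −0.02, and 4, 6 and 4 of them had an unadjusted p under 0.05. DESeq2 called 3, 2 and 1 of them lower. Over all 10191 genes 3172 had an unadjusted p under 0.05, and DESeq2 called 1117 lower. Without control 3, edgeR called 2 cell cycle genes lower and 1 Malpighian tubule gene higher, and without mutant 3 it called 1 of each lower. Over all genes it called 504 of 10404 higher and 646 lower without control 3, and 273 of 10409 lower without mutant 3. Of 24 ecdysone and juvenile hormone genes 1 fell and 17 had a negative fold change, with a median of −0.49 as tested and −0.10 with the length trend removed.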
